A study of Mus musculus with 12 samples.

Results

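The genes described here are 10 members of the mammalian circadian clock, namely Per1, Per2, Per3, Cry1, Cry2, Nr1d1, Nr1d2, Dbp, Clock and Ciart, measured by RNA sequencing in mouse hypothalamus. They were chosen by symbol from the 32494 genes of the deposited expression table, and the rule uses no expression value. Tissue came from 12 male mice that all carried floxed Smc3 alleles and all received tamoxifen, and it was taken 5 weeks after the treatment. An age of 8 weeks is named in the growth protocol, which does not tie it to a step. The 7 mice called WT lacked the Camk2a-cre/ERT2 transgene (Camk2a-cre/ERT2-), and the 5 mice called cKO carried it (Camk2a-cre/ERT2+). The Camk2a promoter drives this tamoxifen-activated recombinase in forebrain excitatory neurons, so recombination is directed to those neurons and not to the other cells of the tissue. Tamoxifen and the floxed alleles were shared by both groups, whereas the transgene was not, and every sample title also carries the word control. The labels give no hour of collection, light cycle or batch.

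The clock is a feedback loop of transcription that runs in nearly every cell of the body. CLOCK, or its relative NPAS2, pairs with BMAL1 (encoded by Arntl) on E-box elements and drives the Per, Cry, Nr1d, Dbp and Ciart genes. The PER and CRY proteins return to the nucleus and inhibit that pair, and the NR1D proteins (REV-ERBs) repress Arntl, Npas2, Clock and Nfil3 at RORE elements, where the ROR receptors activate. DBP and its relatives TEF and HLF activate genes through D-box elements and NFIL3 represses them there. In mice Nr1d1, Dbp, Ciart, Nr1d2 and the Per genes peak between the day and the early night, whereas Arntl, Npas2, Clock and Nfil3 peak around the opposite phase, with Cry1 late in the night. The hypothalamus holds the suprachiasmatic nucleus, the master pacemaker, but that nucleus is a small share of the tissue.

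The sequences just upstream of 4 of these genes are shown as examples, picked because each holds a match to a clock element. Each is the 250 bases before the start site on the minus strand, from the RefSeq promoter table of mouse build GRCm38.p6. Nr1d1 lies at chr11:98775378-98775627, Ciart at chr3:95882229-95882478, Per3 at chr4:151044666-151044915 and Nfil3 at chr13:52981040-52981289. Capitals mark the matches found on either strand.
Nr1d1: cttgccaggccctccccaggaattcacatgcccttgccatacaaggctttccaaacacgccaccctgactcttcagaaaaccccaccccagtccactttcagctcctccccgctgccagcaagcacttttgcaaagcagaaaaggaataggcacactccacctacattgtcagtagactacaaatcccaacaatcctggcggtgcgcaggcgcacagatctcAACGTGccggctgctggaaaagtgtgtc
Ciart: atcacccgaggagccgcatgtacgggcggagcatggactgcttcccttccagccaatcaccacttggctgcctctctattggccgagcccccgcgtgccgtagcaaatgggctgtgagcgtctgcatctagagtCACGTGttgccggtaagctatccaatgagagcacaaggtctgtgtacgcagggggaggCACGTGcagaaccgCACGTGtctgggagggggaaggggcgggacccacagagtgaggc
Per3: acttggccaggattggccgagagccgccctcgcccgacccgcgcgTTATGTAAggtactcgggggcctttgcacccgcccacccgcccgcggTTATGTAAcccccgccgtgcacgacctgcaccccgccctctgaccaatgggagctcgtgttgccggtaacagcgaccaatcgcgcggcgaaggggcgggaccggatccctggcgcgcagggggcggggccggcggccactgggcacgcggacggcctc
Nfil3: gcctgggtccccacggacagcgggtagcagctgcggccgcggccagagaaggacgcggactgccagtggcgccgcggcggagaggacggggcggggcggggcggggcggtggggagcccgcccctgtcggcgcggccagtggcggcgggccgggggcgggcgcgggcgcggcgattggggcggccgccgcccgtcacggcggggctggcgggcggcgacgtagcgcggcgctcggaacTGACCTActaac
In these runs Nr1d1 has the E-prime-box CACGTT, read as AACGTG on this strand, 28 bases before the start. Ciart has 3 copies of the E-box CACGTG, at 116, 58 and 44 bases before the start. Per3 has 2 copies of the D-box TTATGTAA, at 205 and 158 bases. Nfil3, which belongs to the opposite phase, has the RORE TAGGTCA, read as TGACCTA, at 12 bases.

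Windows of 300 bases, from 250 before to 50 after a start site, were available for 9 of the 10 genes (12 windows), and Per2 is named only. The E-box was in 3 of the 12 windows, those of Per1, Cry1 and Ciart, and in 7.15% of all 32851 windows in the table. The E-prime-box was also in 3 of the 12, those of Cry1, Cry2 and Nr1d1, and in 4.68% of all windows. The D-box was in the Per3 window and in 0.938% of all. The RORE (2.61% of all windows) and the cyclic AMP element TGACGTCA (1.79%) were in 0 of the 12. The E-box and the E-prime-box differ in their last letter, no site was counted under both, and a match is a description of the sequence, not of binding. The matches did not divide the genes by phase. Of the genes of the opposite phase, Npas2 and Clock had no RORE in their windows, and Arntl had its RORE only after the start site. Nr1d2 and Dbp had none of the elements searched.

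Smc3, the floxed gene, went against the labels. It was at 81.6 ± 3.14 CPM (CPM are read counts scaled to a common library total; SD, n = 7) in WT and 131 ± 10.3 CPM (SD, n = 5) in cKO, a log2 difference of 0.67 (SE 0.05, limma adjusted p = 3.06e-05) with ranges that did not overlap. The groups are therefore called by their labels, and "lower" means lower in the libraries labelled cKO. Depth was 17.1 to 24.0 M reads (megareads) in 11 libraries and 68.7 M in WT 1. Nothing in the labels says more of the replicates than that they are separate mice, and p-values measure the spread between these 12 libraries.

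Of the libraries, 4 (WT 4, WT 5, cKO 12 and cKO 13) stood apart in Oxt and Avp and in a myelin gene. Oxt, the oxytocin gene of paraventricular and supraoptic neurons, was at 0.28 to 2.33 CPM in these 4 and at 69.5 to 348 CPM in the other 8 (5 WT, 3 cKO). Avp was at 0.793 to 6.46 against 29.0 to 125 CPM, and the myelin gene Mbp was at 3690 to 4330 against 1730 to 3030 CPM. Trh (2.02 to 21.1 against 32.6 to 77.5 CPM) and the hypothalamic factor gene Otp (11.8 to 25.2 against 34.4 to 106 CPM) divided the libraries in the same way, whereas Pmch and Hcrt did not. Pmch and Hcrt, of lateral hypothalamic neurons, were at 42.4 and 30.1 CPM in cKO 12, 101 and 42.8 CPM in cKO 13, 19.8 and 15.4 CPM in WT 4 and 14.4 and 11.95 CPM in WT 5, and the lowest library in both was WT 11 (1.03 and 0.372 CPM). Markers of the hypothalamus were present in all libraries, with a summed level of 93.4 to 713 CPM in WT and 210 to 776 CPM in cKO. Of 11 tested markers, 2 had log2 differences below 0, and the median was 0.53. Only Sim1 passed the limma test, and it was higher, where 14.1% of all tested genes passed in either direction. Thalamus markers were also present. Their summed level was 596 to 1180 CPM in WT and 402 to 707 CPM in cKO. All 7 had log2 differences below 0, with a median of -0.47. Of these, 3 passed the limma test and were lower, against 7.60% of all tested genes, and edgeR and DESeq2 each called 4. The 3 were Prkcd (log2 difference -1.44, limma adjusted p = 0.0177), Plekhg1 and Ntng1. The suprachiasmatic peptides Vip, Nms and Prok2 averaged under 1 CPM, and 0 of 5 tested markers of that nucleus passed the limma test (1 at an unadjusted p under 0.05, 0 by edgeR and 1 by DESeq2), with summed levels of 55.6 to 103 CPM in WT and 55.4 to 72.5 CPM in cKO. Of the markers of other cells, 0 of 7 for glia and 0 of 8 for cortex and striatum passed limma, edgeR or DESeq2 (0 and 0 at an unadjusted limma p under 0.05), and 0 of 3 for choroid plexus passed limma (1 unadjusted, 0 by edgeR, 1 by DESeq2). In bulk tissue fewer cells of a type and less RNA per cell cannot be told apart.

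Of the 10 clock genes, all of which passed the minimum mean of 1 CPM over the 12 libraries, 1 passed the limma test at an adjusted p under 0.05. That gene, Nr1d1, was lower. Over all 15359 tested genes 14.1% passed, and 7.60% passed in the lower direction, and 1 gene of 10 lies near both shares. An unadjusted p under 0.05 was reached by 3 of the 10, against 31.1% of all genes. Differences were below 0 for 7 of the 10, as for 7292 of the 15359 tested genes, with a median log2 difference of -0.12, beside 0.00925 over all tested genes. Group ranges did not overlap for 0 of the 10, against 6.73% of all genes.

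**Figure D1:**
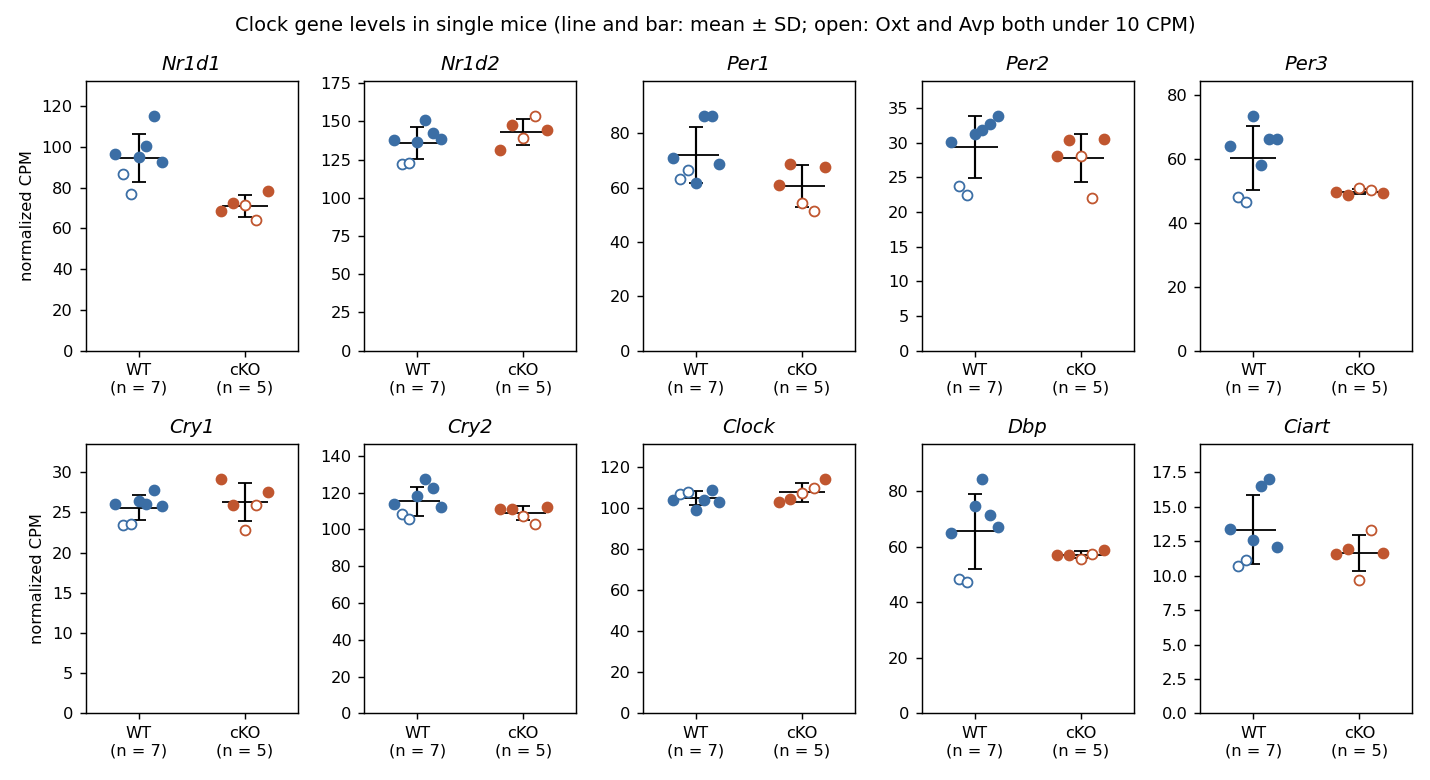
CPM of the 10 clock genes in each of the 12 libraries (1 panel per gene, y axis in CPM from 0), WT and cKO side by side, with open symbols for the 4 libraries in which Oxt and Avp were both under 10 CPM and bars for the mean and SD. The 5 cKO values of Nr1d1 lie below every WT value except for cKO 14 against WT 5, while Dbp, Per3 and Ciart spread more in WT than in cKO.

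Nr1d1 encodes REV-ERB alpha, the repressor that links the E-box loop to Arntl. It ranged from 77.0 to 115 CPM in WT, with a median of 94.9. In cKO it was at 68.5, 72.6, 71.3, 64.0 and 78.5 CPM in mice 8, 9, 12, 13 and 14. The only overlap was between WT 5 (77.0) and cKO 14 (78.5), and 4 of the 5 cKO libraries were below every WT library. The means were 94.8 ± 11.8 (SD, n = 7) and 71.0 ± 5.33 CPM (SD, n = 5), a log2 difference of -0.41 (SE 0.08, limma adjusted p = 0.00836). Without the 4 libraries the ranges did not overlap and the difference was -0.44 (limma adjusted p = 0.0114). Without WT 11, the library lowest in Pmch and Hcrt, it was -0.36 and still passed. With the thalamus marker score in the fit the difference was -0.34 and no longer passed (limma adjusted p = 0.0664). That score moved with the groups, and its part in the lower Nr1d1 level was not tested beyond this value. The authors' deposited table gives Nr1d1 a log2 fold change of -0.42 with a false discovery rate of 3.85e-04, and Nr1d1 is the 1 of these 10 genes that it has under 0.05, where 4.94% of all its genes are.

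Nr1d2, which encodes the paralog REV-ERB beta, did not follow Nr1d1. It ranged from 122 to 151 CPM in WT with a median of 138, and it was at 132, 148, 139, 153 and 144 CPM in cKO. The groups overlapped in part, with WT 4 and WT 5 below every cKO library and cKO 13 above every WT library, and the log2 difference was 0.08 (SE 0.06, limma adjusted p = 0.377). The ratio of Nr1d1 to Nr1d2 CPM within a library was 0.628 to 0.81 in WT and 0.417 to 0.545 in cKO, with no overlap. This ratio was examined after the values of both genes were seen and has no test. Nr1d1 shares 263 exonic bases (8.55% of its exons) on the opposite strand with Thra, the thyroid hormone receptor alpha gene. Whether the counting used strand is not given in the sources used here, so reads in that overlap cannot be told apart. Thra itself was at 587 ± 26.9 (SD, n = 7) and 618 ± 48.1 CPM (SD, n = 5), which did not pass (limma adjusted p = 0.383), and the ratio of Nr1d1 to Thra was 0.138 to 0.199 in WT and 0.103 to 0.123 in cKO.

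The Per genes encode the negative arm of the loop, and Per1 also responds rapidly to light and neuronal activity. Per1 ranged from 61.6 to 86.2 CPM in WT with a median of 68.7, and it was at 60.8, 68.6, 54.3, 51.5 and 67.4 CPM in cKO. Its log2 difference was -0.24 (SE 0.10, limma adjusted p = 0.114), and -0.09 with the thalamus score (limma adjusted p = 0.673). Per2 ranged from 22.5 to 33.8 CPM in WT with a median of 31.2. In cKO it was at 28.1, 30.4, 28.0, 22.0 and 30.5 CPM, a log2 difference of -0.07 (SE 0.11, limma adjusted p = 0.698). The low Per2 values were those of WT 4, WT 5 and cKO 13, which are among the 4 libraries low in Oxt and Avp.

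Per3, a Per paralog that is dispensable for rhythms in mice, ranged from 46.5 to 73.3 CPM in WT with a median of 64.0. In cKO it was at 49.6, 48.6, 50.9, 50.2 and 49.3 CPM. The 5 cKO libraries thus held within a factor of 1.05, whereas the highest WT library was 1.58 times the lowest, and the lowest WT values, in WT 4 and WT 5, were under every cKO value. The log2 difference over all libraries was -0.26 (SE 0.10, limma adjusted p = 0.0966). Without the 4 libraries the means were 65.6 ± 5.46 (SD, n = 5) and 49.2 ± 0.542 CPM (SD, n = 3), the ranges did not overlap and the difference was -0.40 (SE 0.06, limma adjusted p = 0.0105). Leaving out only WT 4 or only WT 5 also brought Per3 past the threshold, in fits that called 6.35% and 8.25% of all genes lower. The alternative without the 4 libraries was chosen after the data were seen.

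The Cry genes encode the partners of the PER proteins that repress CLOCK and BMAL1 directly. Cry1 ranged from 23.5 to 27.7 CPM in WT with a median of 26.1, and it was at 29.2, 25.9, 22.9, 25.9 and 27.5 CPM in cKO. Its log2 difference was 0.03 (SE 0.06, limma adjusted p = 0.739). Cry2 ranged from 106 to 127 CPM in WT with a median of 114. It was at 111, 111, 107, 103 and 112 CPM in cKO, a log2 difference of -0.08 (SE 0.05, limma adjusted p = 0.266). Both genes overlapped between groups. Cry2 shares 295 exonic bases (4.67%) on the opposite strand with D930015M05Rik.

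Clock encodes the E-box binding partner of BMAL1 and cycles weakly in most tissues. It ranged from 98.9 to 109 CPM in WT with a median of 104, and it was at 103, 104, 107, 110 and 114 CPM in cKO. It varied least of the 10 among WT libraries, with the highest 1.10 times the lowest, and its log2 difference was 0.04 (SE 0.04, limma adjusted p = 0.502).

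Dbp encodes the D-box activator and follows E-box activity closely. It ranged from 47.3 to 84.4 CPM in WT with a median of 67.0, and it was at 57.2, 57.0, 55.6, 57.4 and 58.9 CPM in cKO. The highest WT library was 1.78 times the lowest, the widest spread of the 10, against 1.06 times in cKO. WT 4 and WT 5 were below every cKO library, and the other 5 WT libraries were above every one. The log2 difference over all libraries was -0.17 (SE 0.12, limma adjusted p = 0.382). Without the 4 libraries it was -0.32 (SE 0.08, limma adjusted p = 0.0291), from 72.6 ± 7.66 (SD, n = 5) to 57.7 ± 1.05 CPM (SD, n = 3). Dbp shares 539 exonic bases (18.0%) on the opposite strand with Sphk2.

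Ciart, which encodes a repressor of CLOCK and BMAL1 also called CHRONO, ranged from 10.7 to 17.0 CPM in WT with a median of 12.6. In cKO it was at 11.6, 11.96, 9.70, 13.3 and 11.7 CPM. The groups overlapped, and the log2 difference was -0.17 (SE 0.11, limma adjusted p = 0.329). It turned to 0.024 with the thalamus score, and it was -0.25 without the 4 libraries (limma adjusted p = 0.165), where the ranges of 12.1 to 17.0 and 11.6 to 11.96 CPM did not overlap. Ciart rested on 197 to 919 reads per library, against 1326 to 6627 for Nr1d1.

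Without the 4 libraries 3 of the 10 genes passed the limma test, all lower (Nr1d1, Per3 and Dbp), against 10.3% of all genes in either direction and 6.17% in the lower one. Ranges then did not overlap for 4 of the 10, against 21.6% of all genes. With the thalamus score in the fit 0 of the 10 passed limma's test (2 at an unadjusted p under 0.05), where 3.85% of all genes were called lower and 2.15% higher. No other tool was run with that score. Without it edgeR called 1 of the 10 (13.7% of all genes) and DESeq2 called 2, Nr1d1 and Per3 (17.9%). The same 2 genes passed limma's test with a hypothalamus marker score (9.72% of all genes were lower).

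**Figure D2:**
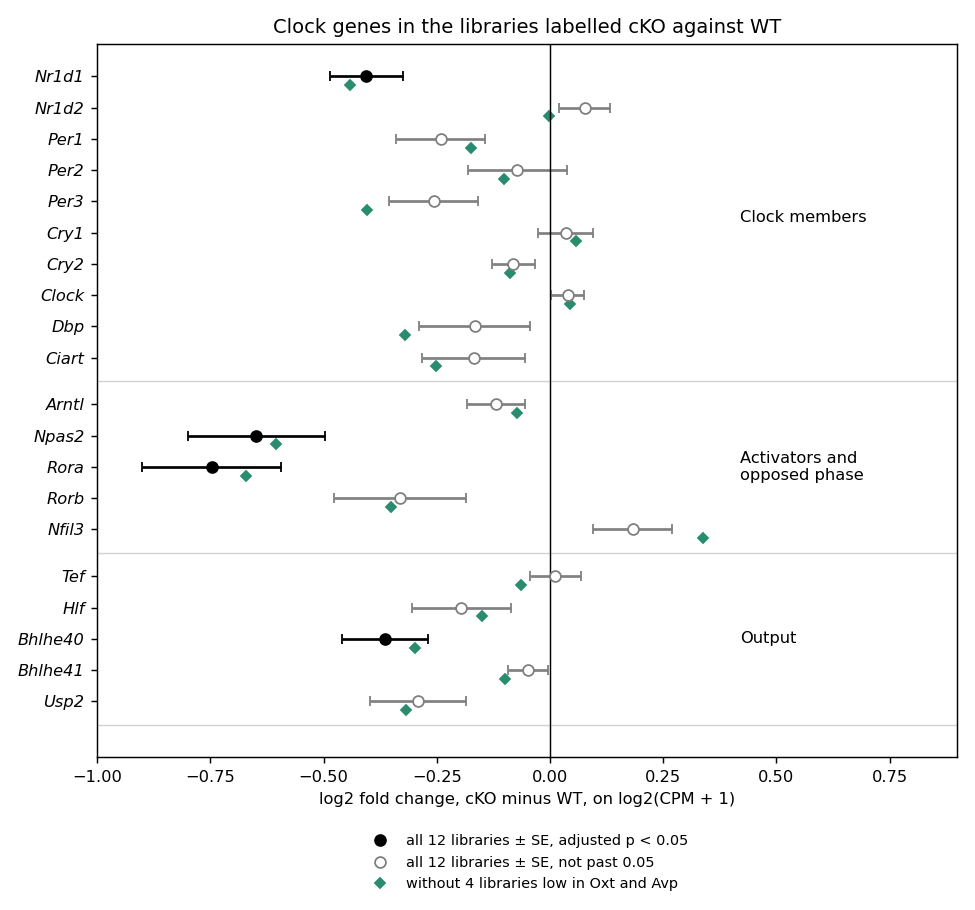
Log2 differences (cKO minus WT, on the log2(CPM + 1) scale) of the 10 clock genes and 10 related clock genes (activators, opposed phase and output), as circles with bars of 1 SE over all 12 libraries (black where the limma adjusted p was under 0.05), and green diamonds for the differences without the 4 libraries low in Oxt and Avp. Nr1d1 lies at -0.41 and -0.44, while Per3 moves from -0.26 to -0.40 and Dbp from -0.17 to -0.32 when the 4 libraries are left out.

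Among the other genes of the positive limb, 2 of 5 passed the limma test, both lower, against 14.1% of all tested genes in either direction and 7.60% in the lower one. The counts for the lists that follow are to be read beside the same shares. Npas2, the forebrain counterpart of Clock, was at 14.8 ± 3.89 CPM (SD, n = 7) in WT and 8.95 ± 1.68 CPM (SD, n = 5) in cKO. Its ranges did not overlap and its log2 difference was -0.65 (SE 0.15, limma adjusted p = 0.0154). With the thalamus score the difference was -0.42 (limma adjusted p = 0.155), and without the 4 libraries it was -0.60 (limma adjusted p = 0.0701). Rora, a receptor that activates at RORE elements, had a log2 difference of -0.75 (SE 0.15, limma adjusted p = 0.0097). It was -0.33 (limma adjusted p = 0.044) with the thalamus score and -0.67 (limma adjusted p = 0.0643) without the 4 libraries. Arntl did not pass, at 28.8 ± 1.94 (SD, n = 7) and 26.5 ± 2.58 CPM (SD, n = 5), a difference of -0.12 (SE 0.06, limma adjusted p = 0.227).

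Nfil3, the D-box repressor, was at 12.1 ± 1.66 (SD, n = 7) and 13.8 ± 0.966 CPM (SD, n = 5), a log2 difference of 0.18 (SE 0.09, limma adjusted p = 0.169). Without the 4 libraries it was higher by 0.34 (SE 0.08, limma adjusted p = 0.0259), and its ranges did not overlap. Of the 5 listed output genes, 1 passed and was lower. This was Bhlhe40, which encodes the E-box repressor DEC1, at 75.6 ± 10.8 (SD, n = 7) and 58.4 ± 7.63 CPM (SD, n = 5), a log2 difference of -0.365 (SE 0.10, limma adjusted p = 0.0246). It did not pass with the thalamus score, where the difference was -0.21 (limma adjusted p = 0.245), or without the 4 libraries, where it was -0.30 (limma adjusted p = 0.149). It also missed the threshold when cKO 8, cKO 12 or cKO 13 alone was left out, at differences of -0.33, -0.33 and -0.34 (limma adjusted p = 0.055, 0.0511 and 0.0573). Tef, the D-box activator related to Dbp, was at 304 ± 27.0 (SD, n = 7) and 306 ± 4.20 CPM (SD, n = 5), and its sign changed between settings.

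Of 12 genes for kinases, ubiquitin ligases and cofactors that act on clock proteins, 1 passed and was higher. This was Prkaa1, a catalytic subunit of the AMP-activated kinase, which phosphorylates CRY1, at 53.3 ± 2.57 (SD, n = 7) and 59.2 ± 2.84 CPM (SD, n = 5), a log2 difference of 0.15 (SE 0.04, limma adjusted p = 0.0359). It lost the threshold without any 1 of WT 1, 6, 7, 11 or 15 or cKO 9, 12 or 13 (limma adjusted p 0.0524 to 0.0775). It also lost it with the thalamus score (0.13, limma adjusted p = 0.174), without the 4 libraries (0.14, 0.0519) and over all genes above 0 (0.15, 0.0562). The casein kinase genes Csnk1d and Csnk1e did not pass.

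Body temperature follows a daily rhythm that drives a group of RNA-binding and heat shock genes. Of 8 such genes 4 passed the limma test, 2 lower and 2 higher, against 14.1% of all tested genes in either direction, and 2 of 8 passed with the thalamus score. The cold-induced genes Rbm3 and Cirbp were lower, by a log2 difference of -0.50 for Rbm3 (SE 0.06, limma adjusted p = 8.92e-04) with ranges that did not overlap, and of -0.33 for Cirbp (SE 0.08, limma adjusted p = 0.0180). The chaperone genes Hspa8 and Hsp90aa1 were higher, by 0.18 (SE 0.05, limma adjusted p = 0.0322) and 0.25 (SE 0.05, limma adjusted p = 0.0107), and neither overlapped between groups. Hsph1, Hspa1a, Hspa1b and Dnajb1 did not pass. Hspa8 lost the threshold without any 1 of WT 1, 6, 7 or 11 or cKO 9, 13 or 14 (limma adjusted p 0.0513 to 0.0695), and also with quantile normalization (0.0713) and over all genes above 0 (0.0843). With the thalamus score Hspa8 and Cirbp missed the threshold (limma adjusted p = 0.0516 and 0.0589), although their differences were no smaller, at 0.22 and -0.36. The same 4 genes passed in the same directions without the 4 libraries.

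Immediate-early genes, which include regulators of Per1 transcription, had log2 differences of -0.43 to -0.06 over all libraries, but Junb (0.14) and Arc (0.09) were above 0 without the 4 libraries, as were Junb (0.05), Arc (0.0026) and Dusp1 (0.08) with the thalamus score. Of 9 tested, 0 passed the limma test (3 at an unadjusted p under 0.05), and edgeR and DESeq2 each called 1. Of 7 genes that respond to glucocorticoids, whose daily peak also drives Per1, 1 passed. This was Zbtb16, at 20.4 ± 4.13 (SD, n = 7) and 12.4 ± 1.87 CPM (SD, n = 5), a log2 difference of -0.67 (SE 0.14, limma adjusted p = 0.00936). Fkbp5, Sgk1 and Tsc22d3 of the same list did not pass.

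The genes of opposite phase were set against each other to ask about the time of collection, which the labels do not give. In a rhythmic tissue a shift of collection time moves the 2 sets in opposite directions at most hours. A score for each library was the mean log2 deviation from the WT mean. Over 11 evening genes (Per1, Per2, Per3, Nr1d1, Nr1d2, Dbp, Ciart, Tef, Hlf, Bhlhe41 and Usp2) the WT libraries ranged from -0.224 to 0.204 (SD 0.167, n = 7). The cKO libraries ranged from -0.227 to -0.0943, with a mean of -0.16 (SD 0.0553, n = 5). The lowest WT scores were those of WT 5 (-0.224) and WT 4 (-0.193), and the highest were those of WT 11 (0.204) and WT 7 (0.195), so the cKO scores lay at the low end of the WT range, with the lowest of them (cKO 12, -0.227) just below it. Thalamus markers followed these scores only in part across the WT libraries, and their part in the scores was not tested. WT 7 and WT 11 were also the WT libraries highest in Tcf7l2 (278 and 307 CPM), Plekhg1 (135 and 148 CPM) and Ntng1 (281 and 341 CPM). WT 4 and WT 5, lowest in the score, came next in these genes, with Tcf7l2 at 215 and 205 CPM. Synpo2 was also highest in WT 7 and WT 11 (74.6 and 88.6 CPM), with WT 4 and WT 5 at 51.96 and 46.3 CPM. Prkcd was highest in WT 4 and WT 5 (266.5 and 210 CPM), against 205 and 197 CPM in WT 7 and WT 11. WT 6 and WT 15, with scores of 0.0168 and -0.00485, were lowest in Tcf7l2 (172 and 161.5 CPM). With the thalamus score in the fit the difference of Usp2 went from -0.29 to -0.09 and that of Per1 from -0.24 to -0.09, Ciart (0.024) and Hlf (0.096) turned above 0, and Per2 (-0.13) and Per3 (-0.35) were further below it.

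Over 5 opposed genes (Arntl, Npas2, Clock, Cry1 and Nfil3) the cKO mean was -0.10 (SD 0.0982, n = 5), also below WT, whose SD was 0.0817 (n = 7). The evening score minus the opposed score was -0.227 to 0.2 in WT and -0.187 to 0.0472 in cKO, with a mean of -0.0577 in cKO (SD 0.094, n = 5), against a WT SD of 0.159 (n = 7). It was -0.0956 without WT 4, -0.0928 without WT 5, -0.0244 without WT 7 and -0.0254 without cKO 8. It was larger without the 4 libraries low in Oxt and Avp, at -0.164 (SD 0.118, n = 3) against a WT SD of 0.0676 (n = 5), with ranges of -0.274 to -0.0403 and -0.0577 to 0.113. The evening score was then -0.262 to -0.178 in cKO and -0.0883 to 0.12 in WT, which did not overlap, and the opposed score averaged -0.0477 in cKO (SD 0.0934, n = 3) against a WT SD of 0.0983 (n = 5). The opposed score rested on Npas2. With Npas2 left out, a choice made after its value was seen, the cKO mean of the opposed score was 0.0342 (SD 0.0639, n = 5) and the WT SD was 0.0513 (n = 7). The evening minus opposed mean was then -0.194. These scores carry no test, and the part of collection time in the difference between groups cannot be told apart from the group.

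**Figure D3:**
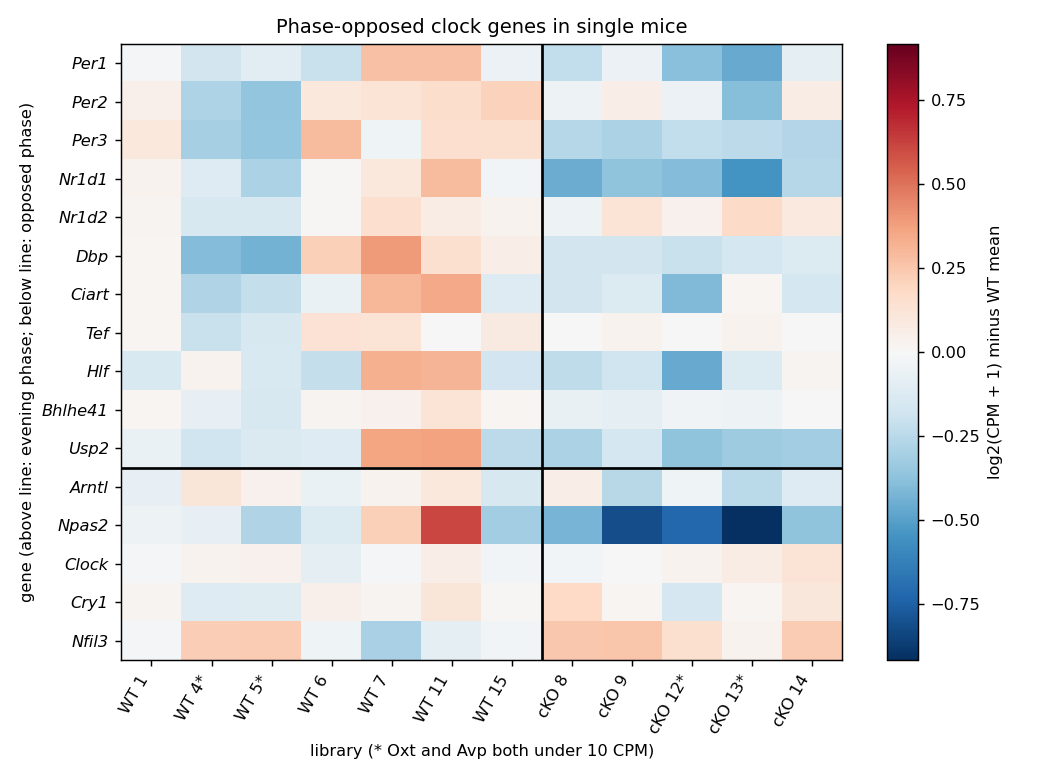
Log2 deviation of 16 clock genes from their WT mean in each of the 12 libraries, with the 11 evening genes above the line and the 5 opposed genes below it. WT 4 and WT 5 are low across most evening genes and WT 7 and WT 11 are high, while the cKO libraries are low in Nr1d1 and Npas2.

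Relations between pairs of genes were taken over the 12 libraries after subtracting each group's mean, with permutation within groups, and 4 were computed. Arntl and Nr1d1, which oppose each other in phase, had a Pearson's r of 0.0725 (permutation p = 0.817, n = 12) and a Spearman's rho of -0.0839 (permutation p = 0.808). Arntl and Dbp had r = -0.224 (permutation p = 0.433) and rho = -0.28 (permutation p = 0.358). Arntl and Per2 had r = -0.163 (permutation p = 0.617) and rho = -0.343 (permutation p = 0.29). None of these 3 inverse pairs passed.

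Nr1d1 and Dbp, which share a phase, had r = 0.703 (permutation p = 0.0295, adjusted over the 4 relations 0.118) and rho = 0.643 (permutation p = 0.0232, adjusted 0.0928). In the 7 WT libraries alone r was 0.771 (exact permutation p = 0.0337, adjusted 0.135). Without the 2 libraries farthest from the median, WT 5 and WT 11, r was 0.581 and rho 0.394. Without the 4 libraries low in Oxt and Avp, an omission chosen after the data were seen, r was 0.231 (permutation p = 0.641, n = 8). No other set of 4 libraries was left out, so whether the smaller r is particular to these libraries was not tested.

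**Figure D4:**
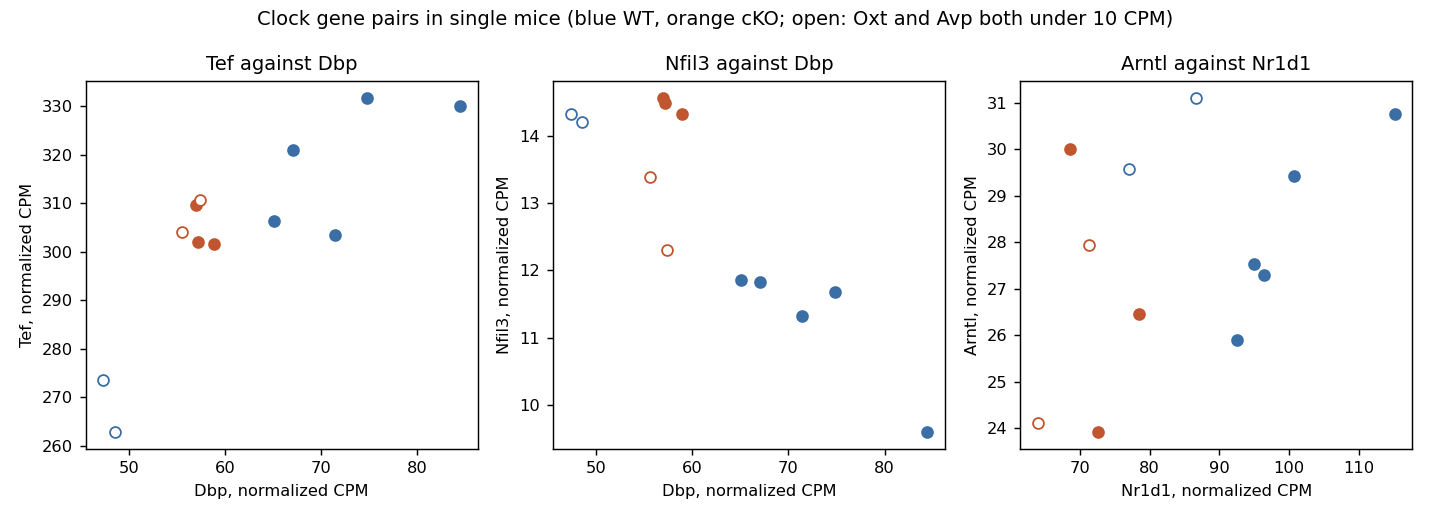
CPM of Tef against Dbp, Nfil3 against Dbp and Arntl against Nr1d1, with 1 point per library coloured by group and open symbols for the 4 libraries low in Oxt and Avp. Tef rises and Nfil3 falls with Dbp across the WT libraries, whereas Dbp spans only 55.6 to 58.9 CPM in cKO and shows no such slope there. Arntl shows no clear slope against Nr1d1.

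Among all 15358 other tested genes, those most like Dbp in their deviations from group means over the 12 libraries were Tef (r = 0.925), Mertk (0.923), Cables1 (0.921), Etnk2 (0.919) and B4galt4 (0.918). The most opposed were Polr2k (-0.924), Fgfbp3 (-0.911), Ctsk (-0.908), Sh3bp5 (-0.885) and Ddit4l (-0.883). Of the clock genes Cry2 ranked 34 (r = 0.852), Nr1d2 69 (0.822), Bhlhe41 104 (0.799) and Per3 141 (0.779), and Nfil3 ranked 15351 (-0.878). Others of them followed Dbp less closely, with Cry1 at 0.583 (rank 1241), Per1 at 0.481 (2193), Hlf at 0.356 (3669), Arntl at -0.224 (10541) and Clock at -0.311 (11477). Oxt (0.716) and Mbp (-0.696) moved with Dbp as well. Dbp varied little in cKO (SD 1.19 CPM, n = 5) beside WT (SD 13.5 CPM, n = 7), so its r values rest mainly on the WT libraries. These values are descriptions without a test. For Nr1d1 the most alike were Acap3 (0.962), Plch2 (0.944), Rap2a (0.942), Myrip (0.94) and D630045J12Rik (0.934), and the most opposed were Leprot (-0.933), Kctd7 (-0.931), Npc2 (-0.931), Rhoa (-0.928) and Maea (-0.927). Oxt had r = 0.713 and Mbp r = -0.646 with Nr1d1.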

How the data were processed

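The library kit was NEBNext Ultra II, per the labels' protocols. The submitters' processing notes name bcl2fastq, FastQC 0.11.9, STAR 2.7.9a, SAMtools, Subread and featureCounts; genome build, annotation and strand setting are not given in the sources used here. The authors deposited normalized CPM for 32494 genes in 12 libraries and a table with log2 fold changes, p-values and false discovery rates. In each library 100% of the deposited CPM values were whole multiples of 1 step (within 0.001 read), so whole reads were recovered for the count tests; 0 columns were left unused.

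The main test was limma 3.58.1 (R 4.3.3; eBayes with trend) on log2(CPM + 1) for 15359 genes averaging 1 CPM or more, adjusted by Benjamini-Hochberg over all of them, with a threshold of 0.05. Fold changes on this scale understate changes of low genes. A marker score is the mean log2(CPM + 1) of a list. Alternatives were other pseudocounts, filters and normalizations, marker scores as covariates, omission of each library in turn, and count tests on the recovered reads (DESeq2 1.42.0, edgeR 4.0.16). The fit was tested on simulated counts. Relations used 100000 permutations, or all 5040 orders of the 7 WT libraries. Promoter windows came from RefSeq, and exon overlaps from GENCODE M21. Named genes were the 10 members, listed clock and marker genes past the threshold, and the 5 most and least alike in profile; others were named after their values were seen. Some listed genes are not reported here. Members and lists were chosen with earlier results of these data known.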

Additional observations from a re-analysis of the deposited data

Results flagged for a closer look

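In 2 of 28 groups of values 1 library stood far from the others, where chance gives about 1.4. WT 1 had 68.7 M reads, and the next deepest WT library had 24.0 M. Per2 in cKO 13 was at 22.0 CPM, and the nearest cKO library was at 28.0 CPM. The gap was 0.712 of the range against a critical value of 0.71. cKO 13 is among the 4 libraries low in Oxt and Avp.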

How the results depend on the processing

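Of 648 values recomputed under other settings, 595 kept their direction and side of the threshold. The number of clock genes past the threshold was 1 in the main test, 2 with DESeq2, 2 with the hypothalamus score, 3 without the 4 libraries and 0 with the thalamus score. It was 1 to 2 when 1 library was left out, with 2 without WT 4 or WT 5. The 4 libraries and the omission of Npas2 were chosen after the data were seen. The cause of these changes was not tested. All genes past the threshold numbered 2172, 922 with the thalamus score and 1158 (without WT 1) to 2302 (without WT 5) when 1 library was left out. Median centring gave 1377 higher and 1054 lower genes against 1004 and 1168. Nr1d1 stayed between -0.45 and -0.36 when each library was left out (limma adjusted p 0.00311 to 0.0218) and passed in 11 of 12 other settings.

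Signs changed in log2 difference for Tef (-0.0122 with quantile normalization, -4.39e-04 with edgeR, -0.00305 with DESeq2, -0.019 with the thalamus score, -0.022 with the hypothalamus score and -0.064 without the 4 libraries), Ciart (0.024, thalamus score), Hlf (0.096, thalamus score), Cry1 (-2.60e-04, hypothalamus score) and Nr1d2 (-0.0021, without the 4 libraries). The relation of Arntl with Dbp had r = 0.34 without the 4 libraries. With 1 library left out, Tef ranged from -0.022 to 0.033, Cry1 from -0.0028 to 0.082 and Per2 from -0.13 to 0.0068. The opposed score was 0.0342 without Npas2. No paired analysis was possible because the 2 groups share no replicate number.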
